A study of Mus musculus with 9 samples.

Results

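Embryoid bodies of 2 Hnrnpll knockout lines, G6 and H8, were compared with wild-type bodies after 4 days of differentiation. The comparison rests on 3 of the 9 libraries of the series, 1 per line, taken by their labelled genotype and day. Embryoid bodies are aggregates of mouse embryonic stem cells that differentiate without an embryo. Per the labels, the stem cells were kept with serum and leukemia inhibitory factor, the bodies formed in hanging drops, and polyA RNA was sequenced at day 0, 4 and 8. The wild-type group is 1 library at each day; the knockout group is 1 library from G6 and 1 from H8, both labelled Hnrnpll-/-. The labels name no parental strain, no clone history and no feeder cells. The 3 libraries hold 122111155 (wild type), 126467666 (G6) and 137745816 (H8) gene counts. Because wild type is a single line with a single library, the genotype and the line cannot be told apart in any value below.

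In the mouse embryo, the epiblast leaves pluripotency at gastrulation by forming the primitive streak, where cells switch on T and Eomes, lose epithelial contacts and become mesoderm or definitive endoderm. Nodal, BMP and WNT signals start and place the streak, and the FGF signal lets cells leave it. Embryoid bodies pass through a streak-like stage after a few days in culture, while the naive pluripotency factors decline. The Hnrnpll protein binds RNA and is best known for switching exon choice when T cells are activated.

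Hnrnpll itself (ENSMUSG00000024095, chromosome 17, 80029487 to 80062334, minus strand, mm10) was read at 101 TPM in the wild-type library of day 4, 61.2 in G6 and 38.6 in H8. TPM is transcript abundance scaled by transcript length and library size. The other wild-type libraries had 77.1 (day 0) and 112 (day 8) TPM, the G6 libraries 54.9 and 56.5, and the H8 libraries 24.5 and 43.5. All 6 knockout libraries thus lay below all 3 wild-type libraries, but the transcript was still detected, and values per gene cannot show an edit in it. The fitted log2 difference at day 4 was -1.07 ± 0.45 (SE) with an edgeR adjusted p of 0.376. Its paralog Hnrnpl had 386, 355 and 359 TPM (wild type, G6, H8).

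Depth over the series ran from 54218051 to 184952442 counts, with the 2 knockout libraries of day 0 the shallowest. At day 4 between 15689 and 16449 genes reached 1 TPM. The wild-type library carried the streak markers that the labelled stage would have, with T at 853 TPM against 2.23 at day 0 and 8.08 at day 8. The Y-linked Eif2s3y had 82.2 TPM in wild type and 0.0533 and 0.0165 in G6 and H8.

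By the test across all genes, 2 of 24794 genes passed an adjusted p of 0.05 (0.00807%), Eif2s3y and Mir8114. The test was edgeR's quasi-likelihood test with 1 mean per genotype and day, which takes its spread from the 2 knockout lines at each day and assumes that the lone wild-type library varies alike. Eif2s3y was lower (1 of 24794 genes, 0.00403%; log2 difference -11.01 ± 0.36 SE, adjusted p = 0.0128). Mir8114 was the 1 gene called higher (0.00403%), with 0.0438 TPM in wild type and 152 and 119.9 in G6 and H8 (log2 difference 9.76, adjusted p = 0.048). With the knockout line as a block, 1 gene passed, Eif2s3y, and Mir8114 had an adjusted p of 0.0561. Without adjustment 3352 genes (13.5%) had p under 0.05. DESeq2, with the same group means, passed 1320 genes (5.32%), 878 of them higher (3.54%) and 442 lower (1.78%). Limma-voom passed 56 (0.226%), 5 higher (0.0202%) and 51 lower (0.206%). Without any 1 of the 6 knockout libraries edgeR passed 0 or 1 gene (0 without G6 or H8 of day 0 or H8 of day 4), and leaving out wild type of day 8 gave 6.

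The Mir8114 entry lies on chromosome 1 (153899926 to 153900036, plus strand) and overlaps the annotated gene Glul, which encodes glutamine synthetase and had 170.2, 127 and 98.2 TPM. Its mature product in RefSeq (GRCm38.p6, chr1:153899989-153900009, plus strand) is shown because it is the one entry that passed in the higher direction; the capitals mark the seed, bases 2 to 8.
mmu-miR-8114: uCACCCAUcuccucuccgccu
The wild-type library of day 4 held 1 count for it, against 1161 in G6 and 1027 in H8, a ratio of 968 with a 95% exact counting interval from 174 to 38246. The other wild-type libraries had 193 TPM at day 0 and 163 at day 8, so the day 4 library stood apart from both. PolyA reads do not measure a mature microRNA, and reads of Glul and of this entry cannot be told apart here.

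Each line was then set beside wild type on its own, without a test, since each pair is 1 library against 1. Genes were counted as apart where both lines were at least 2-fold from wild type in the same direction on the CPM scale (counts scaled to library size, with TMM factors). By that rule 2847 genes (11.5%) lay higher and 1293 (5.21%) lower in both lines. These shares of all genes are the background for each list count below. Among the 12503 genes at 5 TPM or more in a day 4 library, the shares were 4.33% higher and 2.93% lower. G6 alone was 2-fold from wild type for 4490 genes higher (18.1%) and 2400 lower (9.68%), and H8 for 3813 (15.4%) and 2195 (8.85%). H8 was 2-fold above G6 for 1507 genes (6.08%) and below it for 1897 (7.65%). Long intergenic noncoding RNAs were the gene class with the larger share of higher genes: 282 of 1068 (26.4%), against 1799 of 17238 protein-coding genes (10.4%). The classes were not matched for expression level, on which the share over all genes depended.

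All 13 of the listed streak transcription factors lay at least 2-fold lower in both knockout lines, against 5.21% of all genes. Their median log2 difference from wild type was -5.41 in G6 and -4.07 in H8, and that of all genes tested was 0.04 and 0.03. None passed edgeR's test (adjusted p 0.115 to 0.383); 7 passed DESeq2, and 6 passed limma-voom. T, the T-box factor that marks the whole streak, had 853 TPM in wild type, 30.7 in G6 and 78.5 in H8. Its log2 difference was -4.03 ± 0.89 (SE, adjusted p = 0.172). Eomes, the T-box factor needed for mesoderm exit and endoderm, had 253, 20.1 and 27.6 TPM (log2 -3.47 ± 0.46, adjusted p = 0.115, DESeq2 adjusted p = 7.6e-10). Mixl1, a homeobox factor of the streak, had 256 TPM in wild type, 0.935 in G6 and 9.56 in H8. Both knockout libraries were far below wild type for each of these genes, and for T and Mixl1 the G6 library was the lower.

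**Figure D1:**
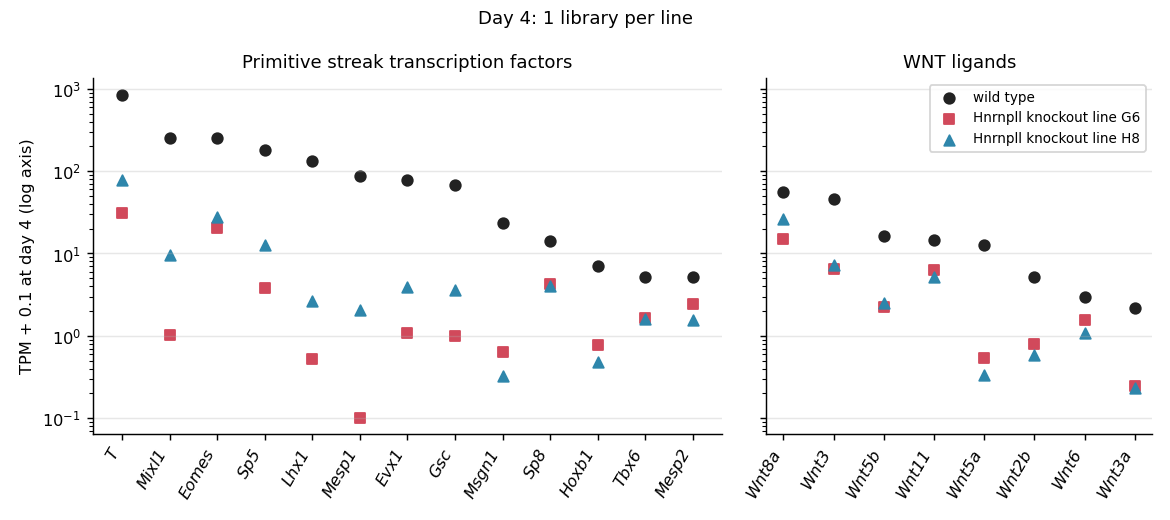
TPM plus 0.1 on a log axis for each of 13 streak transcription factors and 8 WNT ligands in the 3 day 4 libraries, 1 point per library, genes ordered by the wild-type level. The wild-type point lies above both knockout points for all 21 genes; T is at 853 in wild type and at 30.7 and 78.5 in the knockout lines.

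The remaining streak factors followed the same order of libraries, wild type above both lines. Lhx1, a head organizer homeobox gene, had 135 TPM in wild type, 0.418 in G6 and 2.55 in H8. Gsc, another organizer gene, had 68.8, 0.889 and 3.52 TPM. Evx1, a homeobox gene of the posterior streak, had 78.6, 0.967 and 3.84 TPM. Mesp1, the bHLH factor of the earliest cardiac mesoderm, had 87.5 TPM in wild type, 0 in G6 and 1.98 in H8. Msgn1, a bHLH factor of presomitic mesoderm, had 23.1, 0.529 and 0.226 TPM, and here H8 was the lower line (DESeq2 adjusted p = 2.1e-07). Sp5, a zinc finger gene and direct WNT target, had 179.6, 3.67 and 12.7 TPM. Tbx6 and Mesp2 were low in all 3 libraries, at 5.11, 1.54 and 1.51 and at 5.10, 2.34 and 1.46 TPM.

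The promoters of the streak genes in the RefSeq table (GRCm38.p6, 250 bases before the start) were searched for the TCF/LEF core CTTTGA on both strands. It was found for 5 of 12 streak genes (Mesp1, Msgn1, Sp5, Sp8 and T) and for 2 of 6 WNT ligands (Wnt5b and Wnt11), against 15.8% of all 27025 genes in the table. The T-box site GGTGTGA (3.84% of genes) and the FOXH1 motif AATNCACA (3.73%) were found in none of them; none of the 3 motifs overlaps another in the windows shown. A match is a description of letters, not a binding site. The windows of T, Sp5 and Msgn1 are shown, 5′ to 3′ in the gene's direction, with the matches in capitals. They are chr17:8434173-8434422 (plus strand), chr2:70474673-70474922 (plus strand) and chr12:11208973-11209198 (minus strand, ending before the annotated UTR).
T: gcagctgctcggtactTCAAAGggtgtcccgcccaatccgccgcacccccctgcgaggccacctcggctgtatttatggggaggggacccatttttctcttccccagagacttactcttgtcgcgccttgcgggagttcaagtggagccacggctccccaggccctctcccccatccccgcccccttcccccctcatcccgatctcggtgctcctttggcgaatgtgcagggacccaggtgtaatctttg
Sp5: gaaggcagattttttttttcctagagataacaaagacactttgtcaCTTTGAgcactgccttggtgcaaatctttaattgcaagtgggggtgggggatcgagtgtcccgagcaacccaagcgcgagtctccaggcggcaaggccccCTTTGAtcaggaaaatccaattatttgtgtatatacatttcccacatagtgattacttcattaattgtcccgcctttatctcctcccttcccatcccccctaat
Msgn1: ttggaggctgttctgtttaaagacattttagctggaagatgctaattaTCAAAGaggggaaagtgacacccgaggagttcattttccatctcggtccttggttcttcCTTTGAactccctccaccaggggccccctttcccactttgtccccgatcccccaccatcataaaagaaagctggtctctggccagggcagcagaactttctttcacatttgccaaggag
The Msgn1 and Sp5 windows hold 2 matches each and the T window 1.

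All 8 WNT ligands lay at least 2-fold lower in both lines, with median log2 differences of -2.97 (G6) and -2.79 (H8); 7 passed DESeq2 and 2 limma-voom. Wnt3, the ligand needed for streak formation, had 46.3 TPM in wild type, 6.40 in G6 and 7.18 in H8 (log2 -2.84 ± 0.81, edgeR adjusted p = 0.247, DESeq2 adjusted p = 0.0054). Wnt8a, a posterior ligand, had 55.6, 15.1 and 26.4 TPM. Wnt5a, a noncanonical ligand of axis elongation, had 12.6, 0.442 and 0.234 TPM, and Wnt5b had 16.4, 2.15 and 2.38. For these 4 ligands the 2 lines lay below wild type. Wnt2b had 5.08, 0.689 and 0.478 TPM and Wnt11 had 14.7, 6.28 and 5.13.

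Among 14 WNT receptors and agonists, 3 lay lower and 2 higher. Fzd10, a receptor, had 29.1 TPM against 5.67 (G6) and 6.94 (H8), and Rspo3, a secreted agonist, had 16.5 against 0.638 and 1.70. The main co-receptors Lrp5 (40.6, 40.4 and 42.6 TPM) and Lrp6 (30.4, 28.5 and 26.2) lay close together in the 3 libraries. Of 8 WNT antagonists tested, 2 lay lower. Frzb, a secreted decoy receptor, had 29.4 TPM against 0.505 and 1.11, and Dkk1, a blocker of the co-receptors, had 13.2 against 0.911 and 0.50. Of 13 effectors and targets, 5 lay lower and 1 higher. Axin2, a feedback target of the pathway, had 51.0 TPM in wild type, 9.70 in G6 and 11.7 in H8 (log2 -2.33 ± 0.46). Cdx2, a posterior homeobox target, had 17.3, 0.562 and 1.43 TPM. The effector Ctnnb1 (beta-catenin) had 435, 413 and 426 TPM. In all 4 WNT lists, 18 of 43 genes tested lay lower and 3 higher.

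Nodal signalling was more mixed: over 4 lists, 4 of 19 genes lay lower and 0 higher. The ligand Nodal had 145 TPM in wild type, 43.2 in G6 and 98.4 in H8, so only G6 was 2-fold lower. The co-receptor Tdgf1 (Cripto) was high in all 3 libraries, at 1108, 1095 and 893 TPM, while the related Cfc1 (Cryptic) had 21.3 against 0.847 and 1.26. The antagonists split. Lefty1 had 205, 153 and 207 TPM and Lefty2 had 154, 119.5 and 126. Cer1, secreted by anterior endoderm, had 40.7 against 0.0598 and 0.965, and Fst, which binds activin, had 308 against 29.1 and 42.2 (log2 -3.18 ± 0.55, edgeR adjusted p = 0.137). The effectors Smad2, Smad3, Smad4 and Foxh1 were each within 2-fold of wild type in both lines.

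Of 22 BMP genes tested, 10 lay lower and 0 higher. The ligand Bmp4 had 14.0 TPM in wild type, 8.57 in G6 and 5.23 in H8, and Bmp7 had 12.3, 5.23 and 5.15. None of the 4 receptors was 2-fold apart. The targets Msx1 (87.6 against 2.95 and 8.84 TPM), Msx2 (16.3 against 0.970 and 1.46) and Id3 (189 against 64.4 and 79.1) lay lower in both lines. The effector Smad1 had 43.2, 13.3 and 15.4 TPM (log2 -1.68 ± 0.22, edgeR adjusted p = 0.115). Id2, a further target, was on the other side, with 25.7 TPM in wild type and 55.3 and 52.7 in the knockout lines.

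Of 7 FGF ligands 4 lay lower and 1 higher. Fgf8, the ligand of the streak, had 155 TPM in wild type, 12.3 in G6 and 41.6 in H8. Fgf5, the ligand that marks the primed epiblast, had 126, 41.1 and 57.3 TPM, and Fgf3 and Fgf10 had 17.3 and 18.1 in wild type and between 1.71 and 2.34 in the knockout lines. Fgf4, the ligand of naive stem cells, lay higher in both lines, with 14.2 TPM in wild type, 70.6 in G6 and 45.2 in H8 (log2 1.97 ± 0.27, edgeR adjusted p = 0.12). It was higher in both lines at day 0 too, at 46.7, 152 and 167 TPM. Of the receptors, Fgfr4 alone was apart (0.875 against 3.48 and 3.95 TPM), and Fgfr1 had 98.8, 60.3 and 57.2. None of the 10 feedback genes and targets was apart in both lines. Dusp6, a phosphatase of the pathway, had 243, 111 and 129.5 TPM.

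In the Notch list, 5 of 14 genes lay lower and 3 higher. Dll3, a ligand of presomitic mesoderm, had 33.1 TPM in wild type, 4.73 in G6 and 5.81 in H8 (log2 -2.70 ± 0.37, edgeR adjusted p = 0.12). Hes1, a target gene, had 148, 45.7 and 56.5 TPM. Jag1 lay lower (11.5, 5.56 and 4.32) and Jag2 higher (11.6, 38.5 and 28.1), both being ligands. The receptors Notch1 (12.0, 14.6 and 14.1 TPM) and Notch2 (15.7, 13.4 and 14.1) differed little between the 3 libraries.

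**Figure D2:**
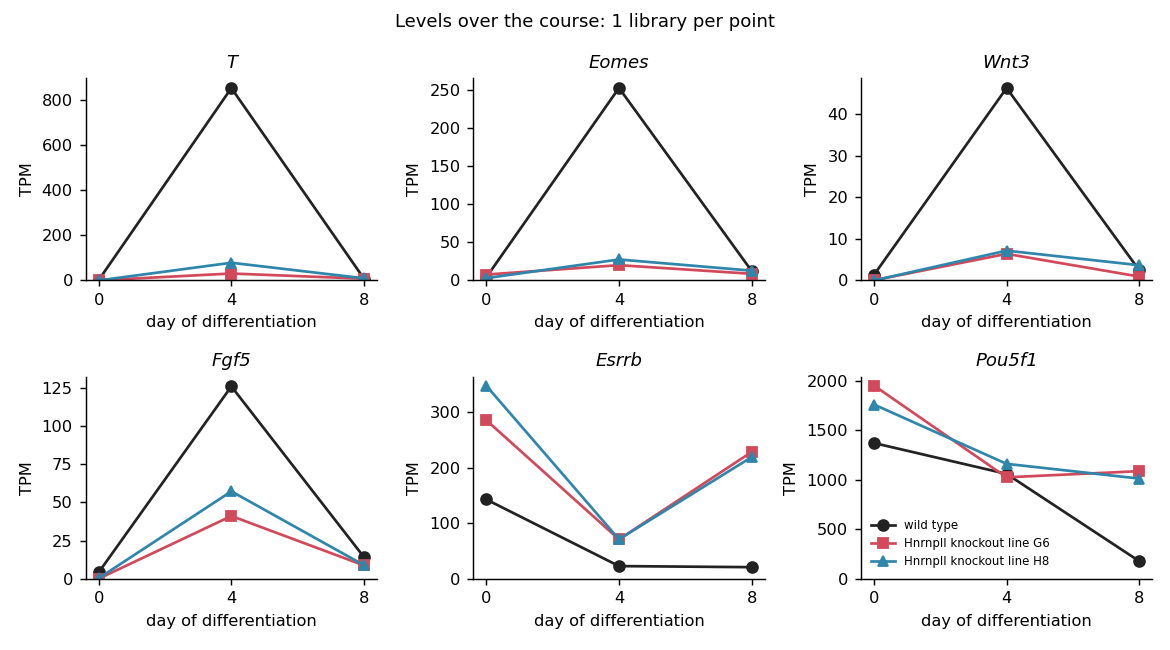
TPM of 6 genes at day 0, 4 and 8 in wild type and in the knockout lines G6 and H8, 1 library per point and linear axes from 0. T, Eomes and Wnt3 peak at day 4 in wild type, and both knockout lines stay below that peak at all 3 days. Eomes has a smaller peak at day 4 in the knockout lines, at 7.75, 20.1 and 8.74 TPM in G6 and 3.05, 27.6 and 12.9 in H8. T is also higher at day 4 than at day 8 in both lines. Pou5f1 is similar in the 3 lines at day 4 and lower in wild type at day 8.

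Genes of the mesoderm that leaves the streak lay lower as well: 14 of 19 in both lines and 0 higher, with medians of -2.54 (G6) and -2.58 (H8), and 8 passed DESeq2. Kdr, a VEGF receptor of vascular and blood progenitors, had 32.2 TPM in wild type, 0.485 in G6 and 1.11 in H8 (log2 -5.40 ± 0.86, edgeR adjusted p = 0.128). Aplnr, the receptor for apelin, had 50.2, 0.0658 and 1.0 TPM, and its ligand Apln 45.1, 5.33 and 6.32. Snai1, the repressor of epithelial genes at the streak, had 55.7, 4.44 and 5.53 TPM. Cyp26a1, an enzyme that degrades retinoic acid, had 197, 15.7 and 5.59 TPM (log2 -4.30 ± 0.56, edgeR adjusted p = 0.115). Apela, another ligand of Aplnr, was an exception, at 49.2, 86.4 and 86.7 TPM. In bulk RNA, fewer cells of a type and less RNA per cell cannot be told apart.

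Of 8 definitive endoderm genes, 6 lay lower and 0 higher, and of the 5 at 5 TPM or more in a day 4 library 4 lay lower. The list summed to 691 TPM in wild type, 380 in G6 and 557 in H8, mostly from list members that are not named here. Foxa2, a pioneer factor of endoderm and node, had 31.0 TPM in wild type, 3.66 in G6 and 4.87 in H8. Cxcr4, a chemokine receptor on endoderm and mesoderm, had 29.2, 1.58 and 1.60 TPM (log2 -4.23 ± 0.85, DESeq2 adjusted p = 2.8e-05). Sox17 differed between the lines, with 15.0 TPM in wild type, 8.85 in G6 and 0.462 in H8, and Gata6 with 27.7, 6.46 and 1.13 did likewise. The 2 cardiac genes above 5 TPM, Myl7 (23.5, 5.57 and 4.71) and Actc1 (8.81, 3.26 and 2.52), were lower in both lines. The haemato-endothelial list went both ways, with 5 of 15 genes higher and 1 lower. Tek and Pecam1, receptors and junction proteins of endothelium that stem cells also express, had 1.22 against 8.32 and 6.61 and 4.05 against 20.4 and 14.0 TPM; Lmo2, a blood progenitor factor, had 10.7 against 1.58 and 2.74.

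Mesenchymal genes that rise when cells leave the epithelium lay lower for 5 of 14 and higher for 0. Cdh2 (N-cadherin) had 82.0 TPM in wild type, 6.23 in G6 and 6.73 in H8, and Cdh11 had 24.5, 0.585 and 1.42. Fn1, fibronectin, had 967, 368 and 349 TPM, and Zeb2 had 15.3, 1.46 and 2.60. At day 0 Cdh2 (12.5, 2.13 and 1.91 TPM), Cdh11 (22.5, 4.03 and 3.05) and Zeb2 (6.63, 1.24 and 0.964) were already lower in both lines. Fn1 had 666, 662 and 1032 TPM at day 0. On the epithelial side 2 of 18 were higher and 1 lower, near the 11.5% and 5.21% of all genes tested. All 18 reached 5 TPM in a day 4 library, and among all such genes the shares were 4.33% and 2.93%. Cdh1 (E-cadherin) had 276, 339.6 and 287 TPM and Epcam 197, 254 and 231, so the cadherin that marks epithelium was at a similar level while Cdh2 was not. Krt8 was the epithelial gene that lay lower, at 444, 101 and 187 TPM.

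**Figure D3:**
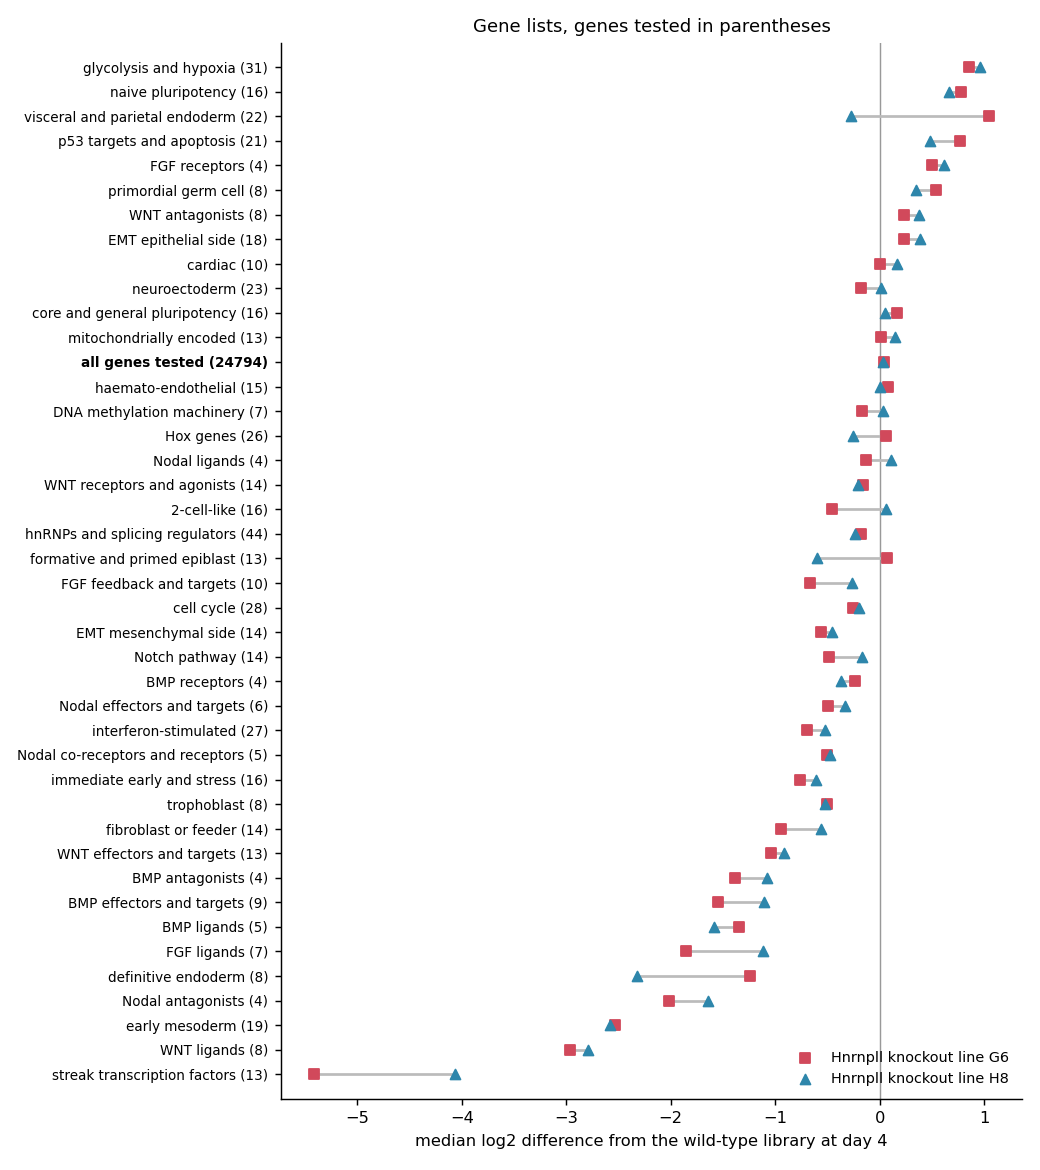
Median log2 difference from the wild-type library at day 4 for each gene list except the Y-linked and X inactivation lists (genes tested in parentheses), shown for line G6 and line H8, joined by a grey line. Of the lists drawn, streak factors lie furthest to the left at -5.41 and -4.07, and all genes tested lie at 0.04 and 0.03.

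Several naive and several general pluripotency genes lay above wild type in both knockout lines, while Pou5f1 and Nanog did not. Pou5f1 (Oct4) had 1059.9 TPM in wild type, 1025 in G6 and 1161 in H8, and Nanog had 216, 144 and 214. Of 16 naive genes 5 lay higher and 1 lower, with medians of 0.78 (G6) and 0.66 (H8). Esrrb, an orphan nuclear receptor of the naive state, had 22.9, 71.0 and 71.2 TPM (log2 1.68 ± 0.17, edgeR adjusted p = 0.0788, DESeq2 adjusted p = 2.6e-12). Zfp42 (Rex1) had 48.3, 126 and 123 TPM, Klf5 had 26.4, 148 and 76.6, and Nr0b1 (Dax1) had 5.09, 41.8 and 29.6. The knockout levels of Esrrb at day 4 were nevertheless below those of the same lines at day 0, 286 and 348 TPM. Wild type had 143 TPM of Esrrb at day 0, so both lines were above it before differentiation too. The difference between day 4 and day 0 gave no call for Esrrb (0.66, edgeR adjusted p = 0.219). Zfp42 had 366, 717 and 825 TPM at day 0, and Nr0b1 had 98.3, 105 and 222. Tbx3 (19.1, 14.2 and 15.0 TPM), Prdm14 (3.06, 3.04 and 2.04) and Socs3 (19.5, 14.6 and 24.4) did not share the higher level at day 4, and Dppa3 lay lower, at 13.3, 2.10 and 5.33.

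Of 16 core and general pluripotency genes 4 lay higher and 0 lower. Sox2 had 94.5 TPM in wild type, 255 in G6 and 221 in H8 (log2 1.25 ± 0.19, edgeR adjusted p = 0.126). Utf1, a chromatin protein of undifferentiated cells, had 102, 273 and 261 TPM. Dnmt3l, the cofactor of the de novo DNA methyltransferases, had 51.2, 281 and 249.7 TPM (log2 2.25 ± 0.26, edgeR adjusted p = 0.109). Dppa2 had 22, 62.2 and 52.5. Among the other genes of the DNA methylation machinery only Tet2 was apart, at 3.38 TPM against 20.4 and 13.6. Formative and primed epiblast genes had medians near 0 in G6 (0.07) and below it in H8 (-0.60), with 3 of 13 lower and 0 higher. Otx2 (135, 153 and 90.8 TPM) and Pou3f1 (24.0, 42.1 and 34.1) were not lower in G6, while Tead2 (169, 70.9 and 75.5) and Nkx1-2 (12.1, 0.658 and 1.38) were lower in both lines.

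Neuroectoderm genes went both ways at low levels, 5 of 23 tested higher and 3 lower, and 5 of the 23 reached 5 TPM in a day 4 library. Pax6, a neural homeobox gene, had 0.289 TPM in wild type, 2.08 in G6 and 2.20 in H8. Sox1, the earliest marker of neural commitment, had 0 counts in wild type and 0.207 and 0.422 TPM in the knockout lines. Against a floor of 3 counts over the group the ratio was 33.8, but 1 count may not be 1 fragment, so this is no firm minimum. Tubb3, a neuronal tubulin, had 6.35, 13.9 and 18.3 TPM. The 3 lower genes were Irx3 (2.88, 1.52 and 1.09 TPM), Zfp521 (4.15, 1.91 and 2.09) and En1 (2.02, 0.326 and 0.215). Zic5 (42.9, 17.8 and 33.2) and Gbx2 (5.0, 1.41 and 3.73) were below wild type in both lines, but not by 2-fold in H8. Among 26 Hox genes 6 lay higher and 5 lower.

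Glycolysis and hypoxia genes made up a list that lay higher: 9 of 31 in both lines and 0 lower, against 11.5% and 5.21% of all genes and 4.33% and 2.93% of genes at 5 TPM or more. The medians were 0.85 (G6) and 0.96 (H8), and 12 genes passed DESeq2 while none passed edgeR or limma-voom. Bnip3, a hypoxia-induced mitophagy receptor, had 84.1 TPM in wild type, 428 in G6 and 296 in H8 (log2 1.98 ± 0.34, edgeR adjusted p = 0.136). Ero1l, an endoplasmic reticulum oxidase induced by hypoxia, had 50.6, 246 and 157 TPM, Pfkp, a phosphofructokinase, had 63.2, 308 and 177, and Slc2a3, a glucose transporter, had 381, 1134 and 855. In all 4 genes both knockout libraries were above wild type and G6 above H8. Ldha, lactate dehydrogenase, went the other way at 2554, 2221 and 1885 TPM, and Eno1, enolase, was at similar levels. At day 8 Bnip3 had 77.0, 85.1 and 62.9 TPM, and the difference between day 4 and day 8 was not past the threshold (edgeR adjusted p = 0.156). Bnip3 was higher in both lines at day 0 too, at 152, 286 and 202 TPM. Pfkp was higher in both lines at day 0 (131, 414 and 330) and at day 8 (77.2, 206 and 168). Ero1l and Slc2a3 were below wild type in both lines at day 8.

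**Figure D4:**
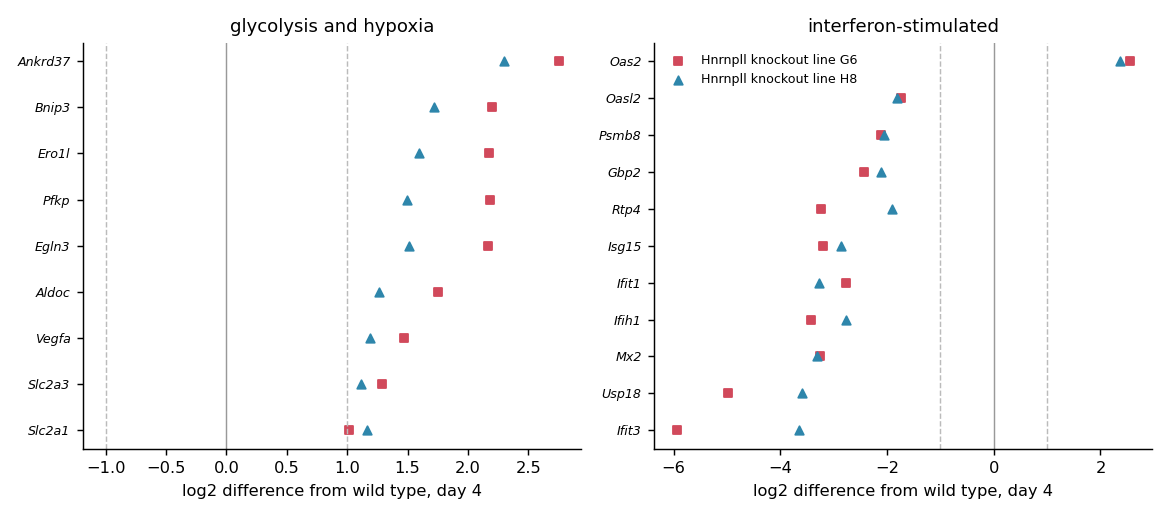
Log2 difference from the wild-type library at day 4 for the glycolysis and hypoxia genes (left) and interferon-stimulated genes (right) that were at least 2-fold from wild type in the same direction in both knockout lines, 1 point per line, with dashed lines at 2-fold. The left panel holds 9 genes, all higher, and the right panel 10 that lie lower and 1, Oas2, higher; the list members that were not apart are not drawn.

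Interferon-stimulated genes lay lower for 10 of 27 tested and higher for 1, with 7 lower in DESeq2 and 3 in limma-voom. Isg15, a ubiquitin-like protein, had 35.2 TPM in wild type, 4.09 in G6 and 4.95 in H8 (log2 -3.03 ± 0.50, edgeR adjusted p = 0.132). Gbp2, a guanylate-binding protein, had 95.1, 19.1 and 22.8 TPM, and Ifih1 (MDA5), an RNA sensor, 5.01, 0.468 and 0.683. Mx2, of the dynamin-like antiviral family but annotated as a polymorphic pseudogene, had 6.70, 0.863 and 0.810 TPM. Wild type was the high library at day 0 too, with Isg15 at 147 TPM against 0.182 and 0.635, and not at day 8 (2.24 against 4.11 and 4.15).

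Immediate early and stress genes lay lower for 7 of 16 and higher for 2. Egr1, a growth factor-induced zinc finger gene, had 201 TPM in wild type, 58.5 in G6 and 39.8 in H8, and Fosb had 65.5, 7.09 and 5.06. Ier3, which sits in the same list, had 18.4 against 123 and 96.3 TPM (log2 2.49 ± 0.29, edgeR adjusted p = 0.109). Among 21 p53 targets and apoptosis genes 2 lay higher, Gdf15 (1.38, 8.30 and 4.47 TPM) and Eda2r (17.3, 57.1 and 38.0), and 1 lower, Pmaip1 (182, 89.0 and 75.0). Both counts were near the shares of all genes tested, 11.5% higher and 5.21% lower. However, 20 of the 21 reached 5 TPM in a day 4 library, and among all such genes the shares were 4.33% and 2.93%. Cdkn1a, the cell cycle inhibitor, had 142, 115 and 118 TPM. None of 28 cell cycle genes and none of 44 hnRNPs and splicing regulators was 2-fold apart in both lines; Khdrbs1 (Sam68), at 239, 144 and 147 TPM, was the 1 splicing regulator past DESeq2. None of the 13 mitochondrially encoded genes was apart either.

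The 10 protein-coding genes with the largest rank in the higher direction, taken by the knockout line nearer to wild type among 8737 genes, were Adm, Aire, Nupr1, Sox12, Ripply1, Laptm5, Nr0b1, Ephx1, Liph and Ier3. Adm encodes adrenomedullin, a vasodilator peptide induced by hypoxia, and had 2.46 TPM in wild type, 35.1 in G6 and 22.2 in H8. Sox12, a SoxC factor, had 2.79, 21.6 and 22.6 TPM (log2 2.91 ± 0.23, edgeR adjusted p = 0.0574, DESeq2 adjusted p = 3.7e-30). Aire, the autoimmune regulator that overlaps Dnmt3l in the annotation, had 6.06, 102 and 52.4 TPM. In the lower direction the 10 were Eif2s3y, Ddx3y, Uty, Klhl6, Lhx1, Aplnr, Mesp1, Msgn1, Cer1 and Asb4. The first 3 are Y-linked, and 4 of the others are streak or mesoderm genes already described by their levels. Klhl6, a ubiquitin ligase adaptor, had 16.8 against 0.0648 and 0.196 TPM. Sall3, a zinc finger gene outside both groups of 10, had 19.5, 3.0 and 2.75 TPM (log2 -2.84 ± 0.21, edgeR adjusted p = 0.0574, DESeq2 adjusted p = 1.6e-29). For Sox12 and Sall3 the 2 knockout libraries lay close together and apart from wild type.

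Markers of other cell types were read beside these values, as whole lists. Of 22 visceral and parietal endoderm markers, 2 were higher in both lines (Apoe and Hnf4a) and 1 lower (Afp), near the 11.5% and 5.21% of all genes tested. The summed level was 721 TPM in wild type, 1639 in G6 and 1179 in H8. The lines parted here: the median difference from wild type was 1.04 in G6 and -0.28 in H8, and 12 of the 22 were at least 2-fold lower in H8 than in G6, none higher. Lama1, a laminin of the parietal membrane, had 4.25 TPM in wild type, 38.3 in G6 and 3.6 in H8. Amn, the anchor of the cubilin uptake receptor, had 1.48, 12.0 and 2.32, and Cubn itself, chosen after its values were seen, had 1.51, 23.5 and 1.40. Afp and Ttr, the secreted products of visceral endoderm, were below 2 TPM in all 3 libraries. The part of these markers in the other results was not tested.

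The trophoblast markers summed to 32.9, 29.9 and 35.7 TPM, with 1 of 8 tested higher (Ascl2, 0.920 against 8.78 and 7.29) and 1 lower. The 2-cell-like markers summed to 81.8, 39.8 and 72.3 TPM, none apart in both lines. The 8 germ cell markers summed to 125, 219 and 159 TPM, with Stra8, a gene of meiotic entry, higher (0.267 against 8.08 and 3.29) and Nanos3 lower (3.83 against 1.14 and 1.0). Over all genes tested 11.5% lay higher and 5.21% lower, so 1 of 8 in a direction is close to what any 8 genes would give. The 14 fibroblast markers summed to 194, 151 and 180.2 TPM, with 1 higher (Thy1, 4.83 against 14.0 and 17.7) and 4 lower. Most of the sum came from Tagln (147, 87.9 and 104) and Fbln1 (28.7, 40.7 and 47.3), while the collagen gene Col1a1 had 1.28, 1.02 and 1.40 TPM, and Lum was at 0 in both knockout lines. The part of these markers in the results was not tested. The Y-linked Ddx3y had 22.2 TPM in wild type and 0 and 0.0112 in the knockout lines, and Xist had 0.742, 2.55 and 1.42.

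The 2 knockout lines differed by chromosome. For genes with a day 4 mean of 5 TPM or more, the median log2 difference of H8 from G6 was 0.33 on chromosome 15 and 0.16 on chromosome 4, and between -0.07 and 0.03 on the other 18 chromosomes. On chromosome 15, 409 of 453 genes (90.3%) were higher in H8, and on chromosome 4, 551 of 791 (69.7%). The same chromosomes stood out at day 0 (0.47 and 0.17) and day 8 (0.28 and 0.11). Against wild type at day 4, H8 was at 0.29 and 0.17 and G6 at -0.02 and -0.08. Of the genes described above, Cer1, Id3, Tek, Pou3f1, Eno1, Isg15, Khdrbs1 and Laptm5 lie on chromosome 4, and Foxh1, Krt8 and Fbln1 on chromosome 15.

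**Figure D5:**
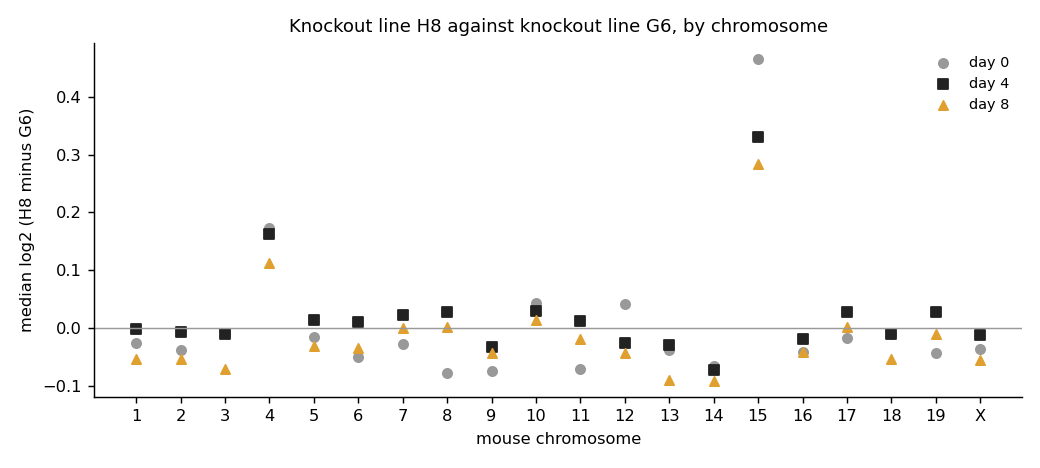
Median log2 difference of knockout line H8 from knockout line G6 for each mouse chromosome at day 0, 4 and 8, over genes with a day 4 mean of 5 TPM or more. Chromosome 15 lies at 0.47, 0.33 and 0.28 and chromosome 4 at 0.17, 0.16 and 0.11, above the other chromosomes at each day.

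Whether the difference at day 4 differed from that of the other days was tested in the same fit. Against day 0, 125 genes passed (0.504%), 113 with a positive (0.456%) and 12 with a negative difference (0.0484%); 69 of them are pseudogenes and 45 protein-coding. At an unadjusted p under 0.05 there were 4267 (17.2%). The knockout libraries of day 0 are the shallowest and had a median of 0.20 and 0.22 CPM for processed pseudogenes, against 0.633 and 0.633 at day 4, and the part of this in the count was not tested. With the line as a block the count was 12, and with any 1 of the day 4 or day 8 knockout libraries left out it was 0 or 1. Against day 8 none of 24794 genes passed in edgeR (0.0%; 4041, or 16.3%, at an unadjusted p under 0.05, and 1577 by DESeq2); the smallest adjusted p was 0.111. The streak factors gave no call in either test. T was at 7.85 and 9.34 TPM in the knockout lines at day 8 and 8.08 in wild type, and Mixl1 at 0.932 and 1.92 against 1.60. By contrast Pou5f1, alike in the 3 libraries of day 4, was at 178 TPM in wild type at day 8 and at 1088 and 1013 in the knockout lines (difference between the days -2.71, edgeR adjusted p = 0.111). Kdr was low in the knockout lines at day 8 too, at 1.29 and 4.96 TPM against 93.0.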

How the data were processed

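RNA of 9 libraries was measured, 1 per line and day, grouped by labelled genotype and day. The authors deposited read counts per gene and TPM per gene. HISAT2 2.0.5, StringTie 1.3.3b and the build mm10 are named per the submitters' processing notes; their roles, the annotation and the strand setting are not given in the sources used here. Many low counts are multiples of 4 (30.5% to 32.0% of counts up to 40 at day 4), so 1 count may not be 1 fragment; intervals and floors cover counting error only. All 49326 identifiers were matched to GENCODE M21 for names and positions; 259 further entries without a gene name (0.0242% to 0.0398% of counts) were left out.

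Counts were tested with edgeR 4.0.16 in R 4.3.3 (quasi-likelihood, TMM, 6 group means, Benjamini-Hochberg over 24794 genes at 0.0791 CPM or more in at least 2 libraries, threshold 0.05). The fit has 3 residual degrees of freedom, all from the pairs of knockout lines. Differences per line are on the log2 CPM scale with a prior count of 2 and have no test. The labels do not say that libraries came from separate cultures, so p-values may measure technical spread. The edgeR fit of the day 4 comparison was tested on simulated data. Alternatives were DESeq2 1.42.0, limma 3.58.1 (voom, and log2 TPM with pseudocounts of 1 and 0.1), other scalings and filters, day 4 libraries alone, leaving out libraries, and a block for the knockout line. The line pairs the knockout libraries across days: the difference of H8 from G6 correlated with r = 0.191, 0.168 and 0.438 between day 0 and 4, day 0 and 8, and day 4 and 8 (13528 genes).

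Named genes were the members of streak and signalling lists, genes past the threshold, and the genes with the smallest p at 5 TPM or more in the other lists. The 10 protein-coding genes with the largest difference in the nearer knockout line in each direction were named too. These had at least 10 TPM at day 4 in wild type or in both knockout libraries, with predicted and clone names left out. Any other named gene was chosen after its values were seen. The members and lists were chosen with earlier results of these data known. Reads of overlapping genes cannot be told apart.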

Additional observations from a re-analysis of the deposited data

Results flagged for a closer look

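For 22 named or listed genes, the difference between knockout and wild type at day 4 differed from that at day 0 in edgeR's test of the difference between the days. Values are the log2 difference at day 4 minus that at day 0, and TPM are given in the order wild type, G6, H8. The knockout libraries of day 0 are the shallowest, and leaving out 1 knockout library of day 4 or day 8 left 0 or 1 call of 125.

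The interferon-stimulated genes were very low in the knockout lines at day 0 and nearer to wild type at day 4. Gbp2 (5.38) had 62.9, 0.430 and 0.187 TPM at day 0 against 95.1, 19.1 and 22.8 at day 4. Gbp2b (6.2) had 51.2, 0.0976 and 0.170 against 67.3, 12.8 and 15.1, and Gbp3 (6.03) had 44.1, 0.0513 and 0.179 against 18.7, 3.76 and 3.94. Ifih1 (5.36) and Mx2 (11.67) did likewise. Mx2 and Actc1 (10.04) had no counts in the knockout libraries of day 0, so their fitted values depend on the prior and are no bound. Ifitm2 (-2.88) was on the other side, with 104, 869 and 803 TPM at day 0 and 109, 123 and 131 at day 4.

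Lefty1 (3.80), a Nodal antagonist, had 359, 23.0 and 21.5 TPM at day 0 and 205, 153 and 207 at day 4. Dnmt3l (2.58) had 574, 390 and 506 TPM at day 0 and 51.2, 281 and 249.7 at day 4, so the wild-type level dropped more. Sox12 (2.63) had 19.1, 24.8 and 21.3 against 2.79, 21.6 and 22.6, and Zfp600 (3.41) had 65.0, 23.0 and 27.7 against 7.75, 28.8 and 19.8. Tek (3.61), Id2 (2.71), Ier3 (2.85), Fgfr2 (3.24) and Kif1a (3.19) also had positive values. Kif1a had 11.4, 2.79 and 2.25 TPM at day 0 and 48.5, 91.5 and 90.2 at day 4.

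Negative values were found for Sall3 (-2.43), Plagl2 (-2.53), Cabp1 (-2.49), Mgat5b (-2.91) and Eif2s3y (-4.13). Plagl2 had 1.55, 7.14 and 6.08 TPM at day 0 and 13.5, 10.3 and 10.7 at day 4. Eif2s3y had 2.15 and 1.54 TPM in the knockout lines at day 0 and 0.0533 and 0.0165 at day 4. Mir8114 (11.17) was low in the wild-type library of day 4 alone.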

How the results depend on the processing

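The number of genes that passed at day 4 (2 in edgeR) depended on the tool: 1320 with DESeq2, 56 with limma-voom, 31 with log2(TPM + 1), 6 with log2(TPM + 0.1), 6 without a filter, 4 among protein-coding genes alone, 1 with total count scaling and 99 with day 4 libraries alone; it ran from 0 to 6 with 1 library left out. With the replicate block for the knockout line it was 1. For day 4 against day 0 (125) it was 1898 with DESeq2, 0 with limma-voom, 373 and 309 with log2(TPM + 1) and log2(TPM + 0.1), 12 with the replicate block, 1 among protein-coding genes and 0 to 200 with 1 library left out. For day 4 against day 8 (0) it was 1577 with DESeq2, 337 and 1 with log2(TPM + 1) and log2(TPM + 0.1), 0 with the replicate block and 0 to 1 with 1 library left out. The cause was not tested. Of the calls at day 4, 66.5% were higher with DESeq2 and 8.93% with limma-voom. Genes 2-fold higher in both lines (2847) came to 605 on the log2(TPM + 1) scale, 4629 at 1.5-fold and 899 at 4-fold; genes lower (1293) came to 388, 2489 and 412, and to 2217 without a filter. None of the single-gene differences changed sign in 500 alternatives. Most of these genes had been picked for a large difference in both lines in the same data, so an unchanged sign is no support. The medians of 8 lists changed sign in 11 of 172 alternatives. On the log2(TPM + 1) scale those of Nodal ligands (-0.11) and Hox genes (-0.10) were 0.32 and 0.02, and with total count scaling that of the DNA methylation machinery (-0.05) was 0.02. In G6 alone the medians of formative epiblast (-0.26), Hox, neuroectoderm (0.01) and cardiac genes (0.14) were 0.07, 0.06, -0.18 and -0.0015. In H8 alone those of Nodal ligands, DNA methylation, visceral and parietal endoderm (0.39) and 2-cell-like genes (-0.19) were 0.11, 0.03, -0.28 and 0.06. List medians moved by more than the standard deviation of the 2 line medians in 48 of 172 alternatives. That value is small where the lines agree, and each line alone is among the alternatives, so the count does not measure how stable a median is. Single genes gained a call in 54 of 500 alternatives and lost one in 13. Leaving out the wild-type library of day 4 was not possible, since the contrast then has no wild-type value; the same holds for wild type of day 0 or day 8 in the tests between days.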
